A study of Homo sapiens with 3 samples.

Results

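The genes described are cadherins and protocadherins, measured in the cell line MDA-MB-231, which derives from a human breast cancer of the triple-negative type. They were chosen by symbol (CDH followed by digits, or a name that starts with PCDH). The rule uses no measured value, but it was chosen with earlier results of these data known. The rule found 54 genes, counted on 183 transcript records, of 22824 genes in all. They comprise 23 cadherins, 13 protocadherins that each have a locus of their own, the 16 PCDHB genes, and the PCDHA and PCDHG loci, each taken as 1 unit because its genes share exons.

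RNA-seq counts were measured in 3 libraries, labelled as biological replicates of 1 group. All 3 cultures carried the p53 mutation the labels give for the line (R280K) and received a control siRNA at 50 nM in 2 transfections 24 h apart, with harvest 48 h after the second. The study concerns p53 mutants and the proteasome, but only these control cultures are described, so no treated group was compared. The line is a single established culture, and the labels do not say how far apart the replicate cultures were grown, so p-values measure only the spread between these libraries.

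Cadherins are calcium-dependent adhesion proteins. The classical ones bind the same or a similar cadherin on the next cell, and their cytoplasmic tails bind beta-catenin and p120-catenin, which tie them to actin through alpha-catenin. Type I cadherins include CDH1 (E-cadherin, of epithelia), CDH2 (N-cadherin, of neural and mesenchymal cells) and CDH3 (P-cadherin). Type II cadherins include CDH11 (OB-cadherin, first known from osteoblasts) and CDH5 (VE-cadherin, of endothelium). Most protocadherins lack the catenin-binding tail. In the clustered PCDHA and PCDHG loci each gene has its own promoter and a large variable exon, which encodes the outer part of the protein and is spliced to a set of exons that all genes of the locus share.

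The total count assigned to genes was 68664126, 84880547 and 54512366 in replicates 1, 2 and 3. Genes with exactly 2 counts (712, 637 and 580) outnumbered those with exactly 1 (485, 401 and 379) in each library, so both mates of a read pair appear to be counted. A count of 0 allows a level of up to 0.0878, 0.0708 and 0.109 CPM (counts divided by the scaled library total) in replicates 1, 2 and 3, the level of 6 counts or 3 pairs; this limit covers counting error only. All 5 marker genes taken for the line were detected, led by VIM at 4532 ± 163 TPM (a library's counts per transcript length, scaled to a fixed sum; SD, n = 3), and EPCAM, an epithelial surface gene, was at 21.9 ± 1.53 TPM. Of markers of other cell types, 1 of 3 leukocyte, 1 of 3 endothelial, 1 of 3 fibroblast and 1 of 4 neural genes passed 1 CPM in each library, and DCN, a fibroblast gene, had no count; their part in the results below was not tested.

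The PCDHG and PCDHA loci are built so that a variable exon of one gene is joined to the same downstream exons as that of its neighbours, which the sequences across the splice junction show. In these lines the last 18 bases of the variable exon are in lower case and the first 24 bases of the shared exons are in capitals, both from the GENCODE 29 transcripts on the plus strand of chromosome 5 (GRCh38), where the PCDHG capitals start at base 141494807 and the PCDHA capitals at base 140978949. The genes shown are the 3 with the most variable-exon counts and the lowest in each locus.
PCDHGB2: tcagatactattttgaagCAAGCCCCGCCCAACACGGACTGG
PCDHGB1: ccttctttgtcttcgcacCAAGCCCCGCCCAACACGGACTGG
PCDHGC3: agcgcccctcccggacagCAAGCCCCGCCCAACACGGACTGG
PCDHGA12: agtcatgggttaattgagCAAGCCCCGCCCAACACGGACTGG
PCDHAC2: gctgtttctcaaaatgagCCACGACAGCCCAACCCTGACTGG
PCDHAC1: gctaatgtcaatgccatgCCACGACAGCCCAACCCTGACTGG
PCDHA13: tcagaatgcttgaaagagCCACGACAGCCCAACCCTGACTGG
PCDHA8: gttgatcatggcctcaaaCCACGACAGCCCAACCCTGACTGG
The first 148 bases of the shared part were identical in all 22 PCDHG genes and in all 15 PCDHA genes, whereas each gene had variable-exon ends of its own (22 distinct ends in PCDHG and 15 in PCDHA). A read that lies in the shared exons therefore cannot be given to 1 gene. The deposited tables label all 33 PCDHA records with 1 locus symbol and all 46 PCDHG records with the symbol PCDHGC3, so the genes were told apart here by record accession.

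Of the 54 members, 23 were detected, meaning at 1 CPM or more in each library, whereas 12681 of all 22824 genes (55.6%) were. The 23 were 6 of 23 cadherins, 6 of 13 single-locus protocadherins, 10 of 16 PCDHB genes and the PCDHG locus. CDH26, PCDH8, PCDH10 and PCDHB1 had no count in any library, and 13 members in all lay at or under 6 counts in every library. The median log2(TPM + 1) over the 54 members, 4 of them without a count, was 0.487 ± 0.008 (SD, n = 3). It was 3.42 over 18492 genes with a count and a known length, a set that leaves genes without a count out, so the sets are unlike. In bulk RNA a low level cannot be told apart from expression in few cells.

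CDH11 had by far the highest level, at 151, 141 and 157 TPM in replicates 1, 2 and 3, and ranked 1245 by TPM among all genes. CDH4, which encodes R-cadherin, first described in retina, followed at 33.7, 34.0 and 30.0 TPM. No library of either gene came near the range of the other, and CDH11 was 4.61 ± 0.555 times CDH4 (SD, n = 3). CDH11 remained above CDH4 under other settings, but by very different ratios, at 583 and 20.7 TPM with the median transcript length and at 80.9 and 51.6 TPM with counts summed over records. CDH11 alone took 78.5% ± 1.94 of all counts on the 23 cadherins, CDH4 took 16.2% ± 1.5 and CDH24, a further type II cadherin, took 3.11% ± 0.297.

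The classical cadherins most used to describe epithelial and mesenchymal states were low. CDH1 had 120, 97 and 45 counts, which is 1.06, 0.688 and 0.504 TPM. CDH2 had 29, 41 and 12 counts, or 0.290, 0.328 and 0.152 TPM, and lay under 1 CPM in each library. Each CDH11 value was 142, 204 and 311 times that of CDH1 in the same library, and CDH4 was 139 ± 51.2 times CDH2, so the type I gene at the top was CDH4 and not CDH1 or CDH2. CDH3 had 95, 65 and 31 counts (0.834, 0.457 and 0.344 TPM), and its range overlapped that of CDH1. CDH15, the muscle cadherin, had 3, 9 and 2 counts, and CDH5 had 0, 3 and 4.

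Other type II cadherins formed a long low tail. CDH18 was at 1.26, 1.90 and 2.19 TPM and CDH19, a gene known from neural crest derivatives, at 0.805, 0.935 and 0.794 TPM, and these 2 did not overlap. The remaining 9 type II genes lay at or under 0.280 TPM on average, down to CDH6 with 0, 1 and 0 counts. Among the other cadherins, only CDH13 was detected; it encodes T-cadherin, which is held to the membrane by a lipid anchor and has no cytoplasmic tail, and it had 84, 89 and 59 counts (0.413 ± 0.0354 TPM). CDH17, the liver-intestine cadherin, had 5, 5 and 0 counts. CDH23, a component of hair-cell tip links, had 35, 55 and 38 counts on its full-length record and 15, 28 and 31 counts on the highest of its other records. PCDH15, its tip-link partner, had 1, 6 and 2 counts.

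**Figure D1:**
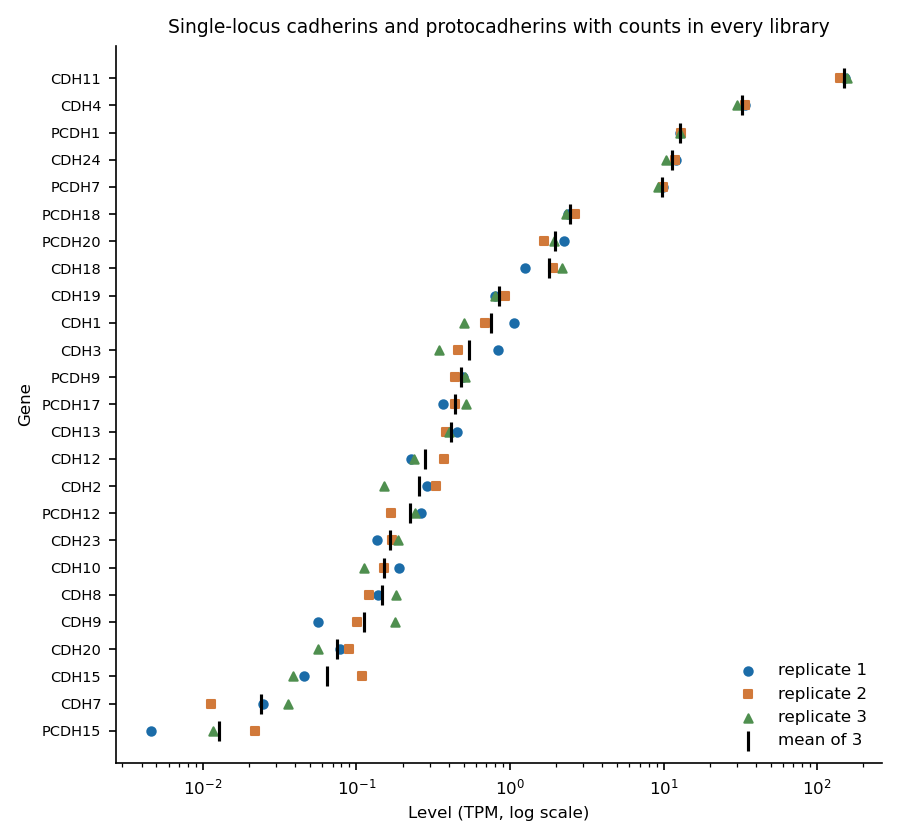
Level in TPM on a log axis of each single-locus cadherin and protocadherin that had a count in every library; the 3 symbols are the replicates and the bar is their mean. CDH11 stands near 149 TPM and CDH4 near 32.6 TPM, and the ranges of neighbours overlap for most genes under 2 TPM.

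Among single-locus protocadherins, the delta-1 genes PCDH1 and PCDH7 were highest. PCDH1, a gene of airway epithelium, was at 12.7, 13.0 and 12.8 TPM, the tightest of the detected single-locus members. PCDH7 was at 9.97, 9.93 and 9.23 TPM, below each PCDH1 value. That order turned with the median transcript length (14.7 for PCDH7 and 7.71 for PCDH1) and with counts summed over records (18.4 and 13.7 TPM). PCDH18 followed at 2.45 ± 0.178 TPM and PCDH20 at 1.95 ± 0.297 TPM. PCDH9 had 323, 357 and 264 counts and PCDH17 had 70, 104 and 78. PCDH12, a protocadherin of endothelium, had 40, 32 and 29 counts, and PCDH19 had 1, 5 and 0. The near-identical PCDH11 copies share reads and are not given separately.

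In the order of all 36 single-locus members by TPM, 27 of 35 neighbouring pairs overlapped in their 3 values. The first 6 places (CDH11, CDH4, PCDH1, CDH24, PCDH7 and PCDH18) did not overlap with the next gene, and PCDH20 and CDH18 overlapped with each other but not with CDH19. Many of these places depend on the transcript length used. With the median transcript length per gene in place of the longest, the level moved by more than its SD for 12 of 16 named members; PCDH7 was then at 14.7, PCDH1 at 7.71 and CDH24 at 4.65 TPM, and CDH3 at 1.51 and CDH1 at 0.512 TPM. With the length of the counted record, an alternative chosen after the data were seen, PCDH9 was at 2.18 in place of 0.482 TPM, CDH13 at 1.22 in place of 0.413 and PCDH20 at 2.59 in place of 1.95.

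Records of 1 gene could differ widely. The lowest PCDH7 record held 73.8%, 75.1% and 71.7% of the count of the highest. The 2 lowest CDH13 records held 22, 25 and 17 counts, against 84, 89 and 59 for its highest. In CDH4, CDH24 and PCDH1 the lowest record held between 96.1% and 97.1% of the highest.

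Counted on its largest record, the full-length one of PCDHGB2, the PCDHG locus was at 26.1, 25.5 and 24.2 TPM, between CDH4 and PCDH1. The locus is thus given without the variable exons of its other genes. Its full-length records held 1847 to 2778 counts in replicate 1, 2332 to 3388 in replicate 2 and 1400 to 2034 in replicate 3, so that all 22 genes look alike in the deposited totals. Each gene also has a record that covers the variable exon and not the shared ones. The full count minus the variable-exon count was nearly the same for all 22 genes, at 1833 to 1839 in replicate 1, 2311 to 2315 in replicate 2 and 1393 to 1396 in replicate 3, which is the number of counts in the shared exons. The plot of full-length against variable-exon counts shows this as 1 line per library.

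**Figure D2:**
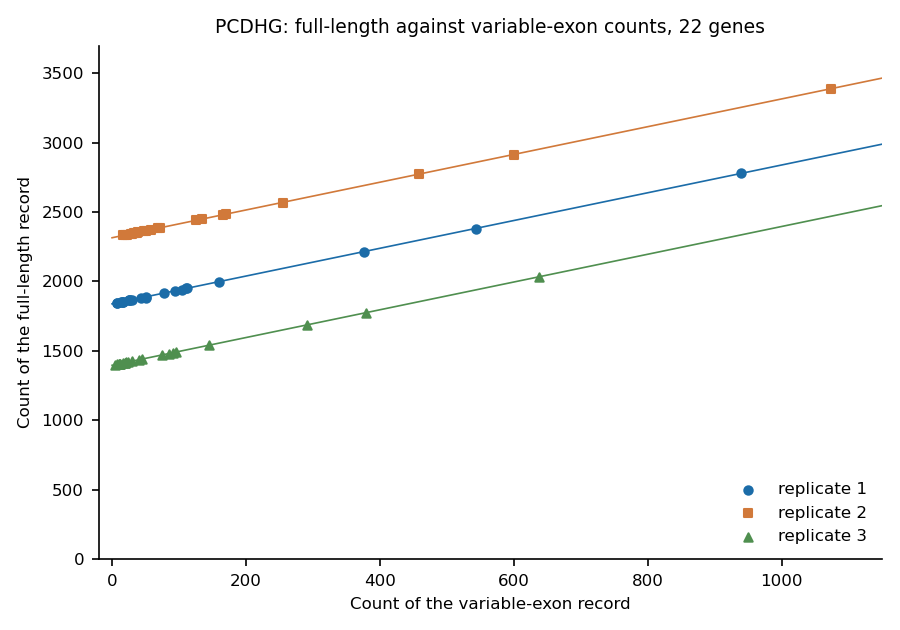
Count of the full-length record against the count of the variable-exon record for the 22 PCDHG genes in each replicate; lines have slope 1 and start at the median difference (1839, 2315 and 1396 counts in replicates 1, 2 and 3). The points lie on the lines, so within a library the full-length counts differ almost entirely by the variable-exon count.

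The variable exons separate the genes. PCDHGB2 had 939, 1074 and 638 variable-exon counts, which was 31.4% ± 1.43 of the locus (SD, n = 3). PCDHGB1 had 543, 601 and 380 counts (18.1% ± 1.07) and PCDHGC3, 1 of the 3 C-type genes, had 376, 459 and 291 (13.4% ± 0.569). These 3 genes took 62.9% ± 2.54 of the variable-exon counts, and their order was the same in each library. At the other end PCDHGA12 had 8, 17 and 4 counts (0.318% ± 0.147), and its share overlapped with those of PCDHGB4 and PCDHGB5. The other C-type genes were also low, PCDHGC4 with 16, 20 and 11 counts and PCDHGC5 with 26, 23 and 12. By type, the 7 B genes held 60.0% ± 0.969, the 12 A genes 25.4% ± 1.29 and the 3 C genes 14.7% ± 0.493.

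**Figure D3:**
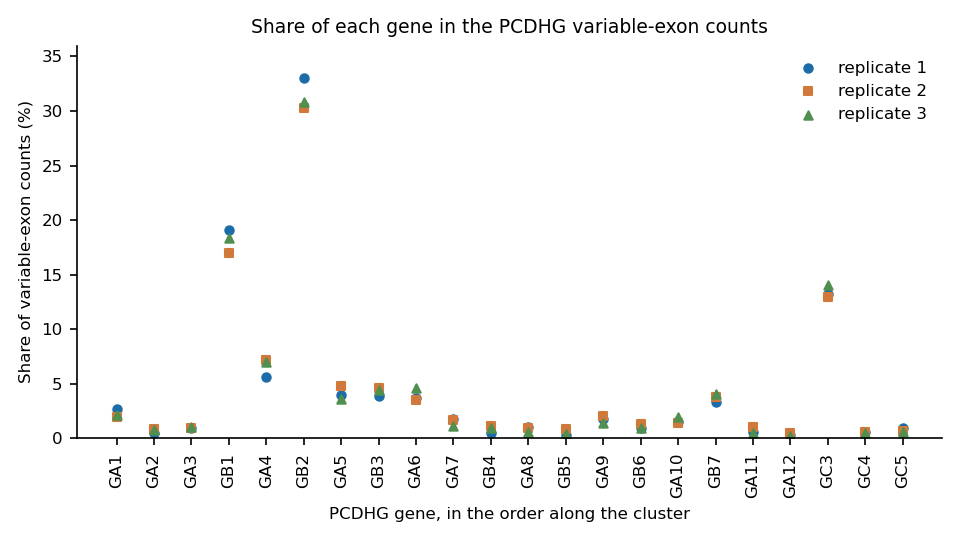
Share of each PCDHG gene in the variable-exon counts of the locus, in percent, for the 3 replicates, in the order of the genes along the cluster. PCDHGB2, PCDHGB1 and PCDHGC3 stand apart at 31.4%, 18.1% and 13.4% on average, with every other gene below 8%.

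Summed over genes, the variable exons held 2846, 3543 and 2072 counts. Divided by the length of each exon, that sum was 1.37, 1.35 and 1.31 times the count per kilobase of the shared exons in replicates 1, 2 and 3, which were 26.9, 27.3 and 25.4 CPM over 2181 bases.

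The PCDHA locus was near the limit of these libraries, with 27, 52 and 38 counts on its largest record, the full-length one of PCDHAC2. Its shared exons held 14 to 15 counts in replicate 1, 25 to 26 in replicate 2 and 19 to 23 in replicate 3. The C-type genes had the most variable-exon counts, PCDHAC2 with 12, 26 and 15 (29.2% ± 3.22 of the locus) and PCDHAC1 with 12, 19 and 12 (24.4% ± 1.55), followed by PCDHA13 with 8, 11 and 11. PCDHA2, PCDHA5 and PCDHA8 had no variable-exon count in any library. With 47, 84 and 48 variable-exon counts in all, the shares of the remaining A-type genes were not resolved at this depth.

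The PCDHB genes have no shared exons, so each is counted on its own. Their summed level was 42.2, 44.4 and 43.0 CPM in replicates 1, 2 and 3. PCDHB2 was highest at 5.35, 5.58 and 5.43 TPM and PCDHB8 followed at 4.52, 4.47 and 4.38 TPM, and these 2 did not overlap. In counts, PCDHB13 (473, 569 and 385) and PCDHB14 (335, 413 and 274) were above PCDHB8 (286, 353 and 219) in each library. The second place of PCDHB8 rests on the lengths used, 2740 bases for it and 5061 for PCDHB13. The levels then fell off gradually, to PCDHB5 at 0.152, 0.183 and 0.209 TPM and PCDHB1 at 0. The PCDHB genes resemble each other in sequence, and whether reads shared between them were split or dropped is not given in the sources used here.

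**Figure D4:**
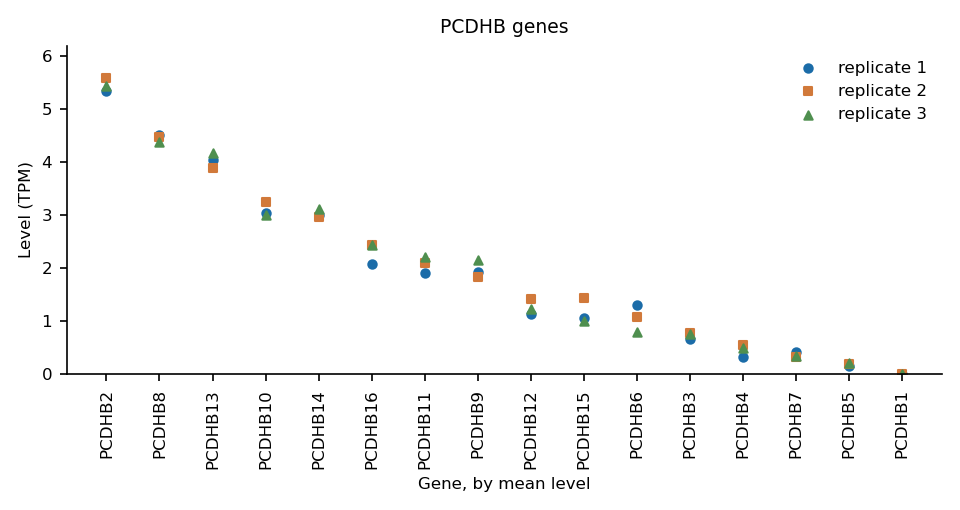
Level in TPM of the 16 PCDHB genes in the 3 replicates, ordered by mean level. PCDHB2 and PCDHB8 are at 5.45 and 4.45 TPM on average, and PCDHB1 is at 0.

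Most variable-exon promoters of the clusters are known to carry a short conserved element whose core is CGCT; a match to these 4 letters alone does not locate it, and PCDHAC2 and PCDHGC4 are known as genes without it. In the RefSeq promoter table (GRCh38.p14), 47 of the clustered genes were present, and 44 of them (93.6%) held CGCT on the sense strand in the 100 bases before the start, against 8781 of 27305 genes in all (32.2%). Of 23 single-locus members in the table, 11 held it. On both strands the counts were 44 of 47, 17 of 23 and 48.8% of all genes. Over the whole table window, from 250 bases before the start to 50 after it, they were 46 of 47, 22 of 23 and 71.9%, so the share was high in all genes there. The windows below, on the plus strand of chromosome 5, show 1 match to the letters before genes of high and low count, with CGCT in capitals. PCDHGB1, PCDHGC3 and PCDHAC2 hold further matches.
PCDHGB2: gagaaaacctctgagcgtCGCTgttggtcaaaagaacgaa
PCDHGB1: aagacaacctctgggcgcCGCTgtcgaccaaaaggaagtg
PCDHGC3: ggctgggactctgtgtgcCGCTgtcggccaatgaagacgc
PCDHGC4: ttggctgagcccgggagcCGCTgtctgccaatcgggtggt
PCDHAC2: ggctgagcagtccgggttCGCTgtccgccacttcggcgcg
PCDHB2: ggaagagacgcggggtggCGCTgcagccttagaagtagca
They lie at chr5:141359919-141359958 for PCDHGB2, chr5:141350023-141350062 for PCDHGB1, chr5:141475878-141475917 for PCDHGC3, chr5:141484950-141484989 for PCDHGC4, chr5:140966363-140966402 for PCDHAC2 and chr5:141094542-141094581 for PCDHB2. The letters shown lay 58 bases before a listed start in PCDHGB1, 70 in PCDHGC3 and 55 in PCDHB2, and 199 bases before it in PCDHGB2. Genes with many counts and genes with few both held the letters. A relation between the element and the counts was not tested. The longer string GGTGGCGCT contains CGCT and was chosen after the promoters were read. Within the same 100 bases it was present on the sense strand in 12 of the 47 clustered genes, PCDHB2 among them. It was in 0 of 23 single-locus members and in 0.190% of all genes. Because the string was chosen on these promoters, these shares are not a test of it.

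The 3 cultures allow 1 test, whether a gene differed between libraries by more than counting noise. Of the 36 members that passed the filter on low counts, 5 differed at an adjusted p under 0.05, whereas 28.5% of all 14432 genes tested did (edgeR fit without extra dispersion, each read pair counted once, Benjamini-Hochberg adjustment over all genes tested). All 5 were cadherins. No protocadherin was called in this fit, which does not show that protocadherins were equal between cultures. Some were called in alternatives given further on, only where each mate or each record of a gene was counted.

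CDH11 was at 351, 329 and 359 CPM, a 1.09-fold span (edgeR, adjusted p = 1.37e-10), and CDH4 was at 74.3, 75.4 and 65.1 CPM, a 1.16-fold span (edgeR, adjusted p = 2.14e-05). These spans are small, and they passed the test at these high counts. The CDH11 call rested on replicate 2 (edgeR, adjusted p = 0.29 without it) and the CDH4 call on replicate 3 (edgeR, adjusted p = 0.828 without it).

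The wider spans were in low genes. CDH3 was at 1.39, 0.767 and 0.565 CPM, a 2.46-fold span (edgeR, adjusted p = 0.0098), and CDH1 at 1.76, 1.14 and 0.820 CPM, a 2.14-fold span (edgeR, adjusted p = 0.0172). Replicate 1 was the highest and replicate 3 the lowest for both. CDH1 and CDH3 are adjacent protein-coding genes on chromosome 16. CDH18 was at 1.51, 2.29 and 2.59 CPM, a 1.72-fold span (edgeR, adjusted p = 0.0272), with replicate 1 lowest and replicate 3 highest. CDH12, adjacent to CDH18 on chromosome 5, was not called (edgeR, adjusted p = 0.446). It was at 0.322, 0.531 and 0.328 CPM, highest in replicate 2, so it did not follow the order of CDH18. Whether adjacent genes vary together was not tested. All 5 marker genes taken for the line also differed between these libraries, each lowest in replicate 3, beside 28.5% of all genes tested. Their counts are high, so small spans passed this fit, from 1.04-fold for CD44 to 1.15-fold for AXL. The epithelial keratin KRT8 was at 689, 692 and 615 CPM (edgeR, adjusted p = 1.78e-34). KRT18 was at 414, 398 and 364 CPM (edgeR, adjusted p = 2.36e-19). VIM was at 4095, 4254 and 3872 CPM (edgeR, adjusted p = 6.42e-121). AXL was at 1262, 1138 and 1094 CPM (edgeR, adjusted p = 1.95e-85). CD44 was at 415, 402 and 400 CPM (edgeR, adjusted p = 0.0248). EPCAM, which was not called, was at 13.5, 13.1 and 11.6 CPM (edgeR, adjusted p = 0.216). PTPRC, a leukocyte marker, was at 0.761, 1.03 and 1.68 CPM (edgeR, adjusted p = 0.0153), lowest in replicate 1 and highest in replicate 3. The summed level of the 3 leukocyte markers was 15.7, 18.1 and 20.3 TPM, most of it LYZ. CD3E, a further leukocyte marker, had only 3, 4 and 0 counts. The sum of the 3 endothelial markers was 1.22, 1.44 and 1.68 TPM, most of it PECAM1. PECAM1 and TEK were highest in replicate 3, whereas VWF was lowest there, at 0.176, 0.153 and 0.0911 CPM. The sum of the 3 fibroblast markers was nearly level at 2.54, 2.54 and 2.52 TPM. That of the 4 neural markers fell from 4.07 TPM in replicate 1 to 3.77 TPM in replicate 3. The part of these markers in the spans was not tested. The 3 calls were lost without replicate 1 (edgeR, adjusted p = 0.548 for CDH3, 0.394 for CDH1 and 0.649 for CDH18) or without replicate 3 (0.0781, 0.167 and 0.108).

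**Figure D5:**
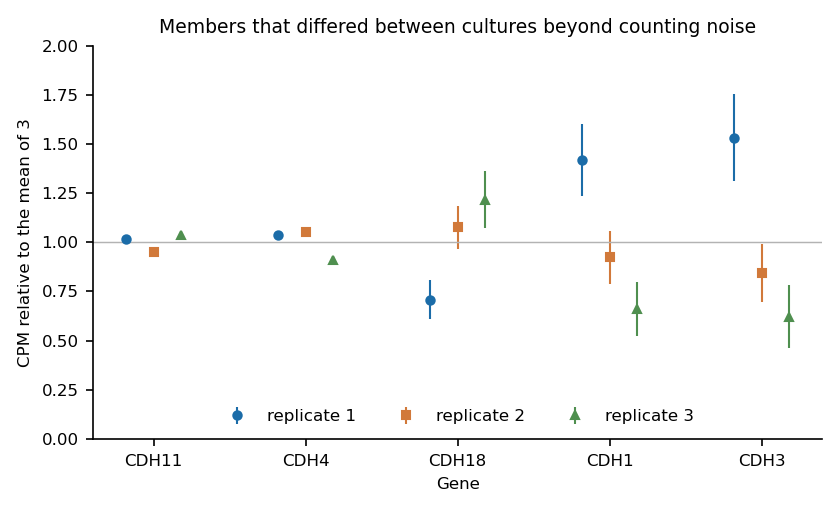
CPM of the 5 members that differed between cultures, each divided by its mean over the 3 replicates; bars are 1 counting SD with each read pair counted once. CDH11 and CDH4 stay within about 10% of their means, while CDH1, CDH3 and CDH18 spread over 1.72-fold to 2.46-fold.

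When cultures were allowed to vary by a coefficient of 0.05, the same edgeR fit called 0 of the 36 members and 7 of all genes (0.0485%), while 3 members had an unadjusted p under 0.05 and 5 were called with DESeq2 size factors and no such allowance. With offsets for GC content and length the calls were 4 of 36, CDH18 being lost (edgeR, adjusted p = 0.0614), beside 13.4% of all genes. With no filter on low counts 5 of 50 members were called, beside 21.1% of all genes. With counts as deposited, each mate counted, 11 of 36 were called, beside 53.0% of all genes; PCDH7, PCDH20, PCDHB6, PCDHB15 and the PCDHG locus were among them. With counts summed over records 11 of 37 were called, beside 41.6%, PCDH7, PCDH15 and the PCDHA and PCDHG loci among them. That sum adds a read once for each record that holds it, so genes with several records repeat their reads. PCDH15 had 12 records and only 1, 6 and 2 counts on its largest, and PCDH7 had 4 records. Without replicate 1 the calls were 2 (20.9% of all genes), without replicate 2 they were 4 (21.4%), and without replicate 3 only CDH11 was called (8.80%).

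The catenins that bind classical cadherins were abundant. Of 9 measured, 6 were detected, beside 55.6% of all genes. CTNNA1 (alpha-catenin) was at 804, 791 and 802 TPM and CTNNB1 (beta-catenin) at 421, 416 and 421 TPM, each above CDH11 in each library. CTNNAL1 was at 317 ± 7.60, CTNND1 (p120-catenin) at 171 ± 9.21, JUP (plakoglobin) at 56.4 ± 1.04 and PKP4 at 50.4 ± 1.87 TPM (SD, n = 3). Of 6 catenins tested, CTNND1 was the 1 that differed between cultures, at 378, 361 and 393 CPM (edgeR, adjusted p = 6.99e-10). Of all genes tested, 28.5% did. The neural or heart forms CTNNA2 and CTNNA3 had 7 to 10 and 3 to 15 counts, and CTNND2 had none.

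Of 16 other partners of the adherens junction, 15 were detected, led by IQGAP1, a scaffold protein, at 244 ± 11.3 TPM and PTPRF, a receptor phosphatase, at 217 ± 11.1 TPM, with PVRL4 (nectin-4) lowest at 4, 4 and 0 counts. Of 7 repressors of CDH1, 5 were detected, with TCF3 at 55.0 ± 2.19 and ZEB1 at 46.5 ± 1.55 TPM and TWIST1 at 0 counts. The level of CDH1 beside them is a description of the same cultures.

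Of 25 genes of the wider cadherin superfamily outside the rule, 11 were detected. FAT1, a giant cadherin, was at 199, 176 and 202 TPM, above CDH11 in each library, and CLSTN1 (calsyntenin-1) was at 98.5 ± 3.89 TPM, while CLSTN2 had no count. All 12 genes listed as regulators of the protocadherin clusters were detected. The cohesin subunits RAD21 and SMC3 were highest at 411 ± 15.5 and 201 ± 15.4 TPM. The DNA methyltransferase DNMT3B was lowest at 14.1 ± 0.678 TPM. In the edgeR fit 9 of 15 adherens junction partners tested and 1 of 6 CDH1 repressors differed between cultures. So did 4 of 14 superfamily genes and 9 of 12 cluster regulators, beside 28.5% of all genes tested. IQGAP1, PTPRF, TCF3, FAT1, CLSTN1, RAD21 and SMC3 were among those called.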

How the data were processed

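RNA-seq was made from 3 control siRNA cultures (TruSeq RNA, paired reads of 100 bp, per the labels' protocols). The values, as deposited, are unnormalized whole counts on RefSeq records; FastQC, TopHat2, Cufflinks and hg19 are named per the submitters' processing notes, without versions. The counting tool, and how it treated strand and multiply aligned reads, are not given in the sources used here. Reads of overlapping or antisense genes can therefore not be told apart.

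A gene's count was that of its record with the largest total. Of 6937 records without a symbol, 6318 were matched by accession in the RefSeq gene table (GRCh38.p14, names only) and 619 were left out (0.952%, 0.959% and 0.944% of counts in replicates 1, 2 and 3). CPM used edgeR 4.0.16 TMM library sizes. TPM used the longest GENCODE 29 transcript, found for 98.7% of the genes with a count. The PCDHA and PCDHG loci instead took a middle length of their full-length transcripts, 5254 and 4605 bases. Promoters came from RefSeq and junctions from GENCODE. Fold values and log2(TPM + 1) were computed here.

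Variation was tested with an edgeR intercept fit at dispersion 0 after filterByExpr, its deviance halved for paired mates, against a chi-square with 2 degrees of freedom, with Benjamini-Hochberg adjustment and a threshold of 0.05; it was tested on simulated data. Alternatives were DESeq2 1.42.0 size factors, other filters, counts, records, lengths and offsets, and each replicate left out. R 4.3.3 and Python 3.11.15 were used.

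Members, lists and tests were chosen with earlier results of these data known. Named genes are all single-locus members detected or called, CDH1, CDH2, CDH3 and CDH5, members without counts, the 2 highest and the lowest of each cluster and list, the C-type genes and all catenins; any other gene named was picked once its values were known. The catenin ARVCF was not analysed here. A further leukocyte marker is not reported here.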

Additional observations from a re-analysis of the deposited data

Results flagged for a closer look

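Counts also fell on records of protocadherin pseudogenes, which carry no symbol in the deposited tables and enter no comparison above. PCDHB18P had 18, 28 and 16 counts and PCDHB19P had 19, 40 and 24 counts in replicates 1, 2 and 3, above the 6 counts that a count of 0 allows. Both lie among the PCDHB genes and resemble them, so reads may be shared, which was not tested. PCDHB17P with 26, 21 and 6 counts and PCDHGB8P with 10, 13 and 3 did not pass that limit in every library.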

How the results depend on the processing

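The number of detected members was 23 with each scaling, 28 at a minimum of 0.5 CPM, 17 at 2 CPM, 20 with counts summed over records and 23 to 25 with each replicate left out. The median log2 level was -0.995 with a pseudocount of 0.1 TPM, 0.764 in CPM, and 0.483 to 0.49 with each replicate left out. The members that differed between cultures numbered 11 with counts as deposited (53.0% of all genes, 7656) and 11 with counts summed over records (41.6%, 6101). In that sum, genes with several records, the clustered loci among them, add the same shared reads once per record. The number was 4 with GC and length offsets (1918 of all genes) and 0 with a coefficient of variation of 0.05 allowed for (7 of all genes). It was 1 to 4 with each replicate left out (1297 to 3093 of all genes). Without replicate 3 only CDH11 was called, and 8.80% of all genes; without replicate 1, CDH11 and CDH4 were. The median transcript length moved the TPM of 12 of 16 named members by more than their SD and turned the order of PCDH1 and PCDH7, so TPM orders depend on the length. No paired analysis was possible because the 3 libraries form 1 group.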
